A study of Homo sapiens with 8 samples.

Results

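The HLA class II genes and their transactivator CIITA were followed array by array in A375-LM3 human melanoma cells. The set was chosen by gene symbol and comprised 9 genes: CIITA, CD74, HLA-DRA, HLA-DRB1, HLA-DRB4, HLA-DPA1, HLA-DPB1, HLA-DMA and HLA-DMB. Every probe carrying 1 of these symbols was taken, which gave 14 probes of the 47323 on the array. All 14 were brighter than background on 2 or more of the 8 arrays, as were 22396 probes of the whole array, and those probes were tested.

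The study looked for target genes of JMJD3, the histone demethylase encoded by KDM6B, with Illumina HumanHT-12 V4 bead arrays. A375-LM3 is a derivative of the established melanoma line A375. There were 4 groups of 2 arrays each. Tumor-dissociated JMJD3 cells and tumor-dissociated vector cells had grown as a primary tumor from A375-LM3 cells expressing JMJD3 or carrying the vector, and were then kept in culture for 3 passages. Cultured JMJD3 cells and cultured vector cells carried the same constructs and had been cultured for 1 day. All cells were grown in serum-containing medium, and the labels name no interferon or other stimulus. The promoter that drives JMJD3, the number of clones and the host of the tumors are not given in the labels. The labels also do not say whether the arrays of a group came from separate cultures or tumors, so each p-value measures only how far these arrays lie apart, a spread that may be technical. Growth in a tumor, dissociation and the extra passages cannot be told apart.

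HLA class II molecules are surface heterodimers of an alpha and a beta chain that present peptides from the endosomal pathway to CD4+ T cells. Their genes share a promoter module read by the RFX complex, CREB and NF-Y, and CIITA, which binds no DNA itself, joins these factors and sets whether the genes are transcribed. CD74, the invariant chain, blocks the peptide groove until the endosome, where HLA-DM exchanges its remnant for antigenic peptide. Professional antigen-presenting cells express the set constitutively, most other cells only after interferon gamma, and a subset of melanomas without an added stimulus.

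Promoter sequence from RefSeq (build GRCh38.p14) was at hand for 6 of the 9 genes, in 7 windows of 300 bases that run from 250 before to 50 after the gene start. The stretches below are shown because class II promoters are known for a common module, and they differ in how much of the letters searched they hold. The capitals mark CTGATGATG, letters that overlap the X box bound by RFX and CREB, and ATTGG, the NF-Y letters of the Y box, written CCAAT where they lie on the other strand. The letters were chosen after these promoters had been read. All 4 stretches are 100 bases long, are printed 5′ to 3′ and lie on the minus strand, at chr6:32589843-32589942 for HLA-DRB1, chr6:32941032-32941131 for HLA-DMB, chr6:32953126-32953225 for HLA-DMA and chr5:150412944-150413043 for CD74.
HLA-DRB1: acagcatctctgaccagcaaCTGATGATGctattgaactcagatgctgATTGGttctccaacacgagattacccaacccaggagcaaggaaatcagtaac
HLA-DMB: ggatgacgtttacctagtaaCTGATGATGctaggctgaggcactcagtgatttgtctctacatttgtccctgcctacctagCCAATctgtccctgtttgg
HLA-DMA: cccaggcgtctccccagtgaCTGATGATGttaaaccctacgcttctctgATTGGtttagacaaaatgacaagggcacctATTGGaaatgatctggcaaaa
CD74: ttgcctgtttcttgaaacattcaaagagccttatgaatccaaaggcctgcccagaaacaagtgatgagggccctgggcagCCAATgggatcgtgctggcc

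CTGATGATG, searched on both strands, was in 3 of the 7 windows of the set (HLA-DRB1, HLA-DMB and HLA-DMA) and in 95 of 35116 RefSeq promoters, 0.271%. ATTGG, searched on both strands, was in 5 of the 7 windows and in 34.6% of all promoters. Neither motif was in the HLA-DPA1 windows, and HLA-DPB1 held only ATTGG. CTGATGATG followed within 40 bases by ATTGG on the same strand occurred in 5 of the 35116 promoters, which were those of HLA-DRB1, HLA-DMA, HLA-DOB, THBS3 and LOC112267892. The CD74 stretch is shown as a promoter of the set that lacked the first motif and held the second. These matches describe letters in a window and were not tested against binding.

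Intensities are the deposited values on a linear scale. The background level was 161.1, set from the dim end of all values, and a brighter probe was taken as above background. Levels are read for each probe across arrays, since the brightness of different probes cannot be compared. Between 19990 and 20000 probes were above background on each array, near equal because the deposited columns share 1 intensity distribution. Replicate arrays correlated across tested probes with r between 0.983 and 0.9924. The KDM6B probe checked the JMJD3 labels only weakly: it gave 161.7 and 159.7 in tumor-dissociated JMJD3 cells, 148.4 and 140.6 in tumor-dissociated vector cells, 155.8 and 149.96 in cultured JMJD3 cells, and 150.3 and 144.5 in cultured vector cells, above background on 1 array. The second array of tumor-dissociated vector cells stood apart from its partner in the class II set, so results that rest on it are given with and without it.

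Averaged over JMJD3 and vector cells, 9 of the 14 probes (7 of the 9 genes) were lower in tumor-dissociated than in cultured cells, against 9.32% of all tested probes, while HLA-DMA and HLA-DMB did not pass the limma test. CIITA was 2.90-fold lower in tumor-dissociated cells and CD74 3.55-fold lower with its brightest probe. Differences and folds are of background-corrected intensities, on which dim probes differ by more than on the intensities printed. In 11 of the 14 probes, from 8 of the 9 genes, every tumor-dissociated array lay below every cultured array. Over all tested probes 12.1% separated in that direction. Without the lowest array, the second of tumor-dissociated vector cells, 11 of 14 separated too, against 16.6% of all probes. Leaving out an array cannot undo a separation, so that count is no check of the first. HLA-DMA was the gene whose groups overlapped.

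CIITA gave 189.3 and 171.9 in tumor-dissociated JMJD3 cells, 198.5 and 141.2 in tumor-dissociated vector cells, 258.5 and 286.1 in cultured JMJD3 cells, and 321.5 and 356.6 in cultured vector cells. The 4 cultured arrays were all higher than the 4 tumor-dissociated ones, and the 141.2 of the second tumor-dissociated vector array was not above background. Averaged over vector and JMJD3, CIITA was lower by a log2 difference of -1.54 ± 0.245 (SE, n = 4 arrays each; limma adjusted p = 0.00318). Without the second tumor-dissociated vector array the difference was -1.21 (limma adjusted p = 0.00208).

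CD74, the invariant chain and class II chaperone, gave 3890 and 3501 with its brightest probe in tumor-dissociated JMJD3 cells, 3644 and 490.2 in tumor-dissociated vector cells, 6975 and 6150 in cultured JMJD3 cells, and 8825 and 7851 in cultured vector cells. The tumor-dissociated arrays other than the low one were close together, the low one was far below them, and no tumor-dissociated array reached a cultured one. The difference was -1.83 ± 0.524 (SE, n = 4 arrays each; limma adjusted p = 0.0376), and -1.03 without the low array. The second CD74 probe followed the same order between origins, at -1.85 (limma adjusted p = 0.0562, and 0.00369 without the low array). The third probe was dim, between 140.3 and 287.6, and its groups overlapped, with 1 array at 192.9 in tumor-dissociated JMJD3 cells and 1 at 190.7 in cultured JMJD3 cells. It was lower, at -1.06 (limma adjusted p = 0.0239), a call lost without the low array, at -0.79 (limma adjusted p = 0.0645).

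HLA-DRA, which encodes the DR alpha chain shared by all DR molecules, gave 3550 and 4388 with its brightest probe in tumor-dissociated JMJD3 cells, 5548 and 469.1 in tumor-dissociated vector cells, 7843 and 7370 in cultured JMJD3 cells, and 11140 and 9056 in cultured vector cells. Both cultured groups lay above both tumor-dissociated groups. The tumor-dissociated vector arrays lay 14.9-fold apart in background-corrected intensity, the widest gap between replicates of any member probe. The origin difference of this probe was -1.89 ± 0.636 (SE, n = 4 arrays each; limma adjusted p = 0.0664) and did not pass the threshold, while without the low array it was -0.92 ± 0.145 (limma adjusted p = 0.00667). The other HLA-DRA probe passed in both fits, at -1.81 (limma adjusted p = 0.0495) and -0.96 without the low array.

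The DR beta probes may read paralogs and alleles of one another, so their gene names are uncertain. HLA-DRB4, an additional DR beta gene carried by some haplotypes, gave 578.9 and 983.5 with its brightest probe in tumor-dissociated JMJD3 cells, 1103 and 247.8 in tumor-dissociated vector cells, 2199 and 1560 in cultured JMJD3 cells, and 2646 and 2673 in cultured vector cells. All cultured arrays were above all tumor-dissociated ones, and tumor-dissociated JMJD3 replicates were themselves well apart. This was the member probe with the largest origin difference, -2.09 ± 0.486 (SE, n = 4 arrays each; limma adjusted p = 0.0172; -1.39 without the low array). A second HLA-DRB4 probe differed by -1.84 (limma adjusted p = 0.0229), whereas the third, between 169.2 and 192.8 on all 8 arrays, differed by 0.09 (limma adjusted p = 0.633) and disagreed with them. HLA-DRB1, the main DR beta gene, was not above background on any tumor-dissociated array (143.3 to 155.9). It was above background on all 4 cultured arrays (162.3 to 189.1). The origin difference is thus a bound, at least 1.22-fold lower in background-corrected intensity (limma adjusted p = 0.0135). The probe was tested only because of the cultured arrays, where it was high. Its test and its place in the counts of lower probes are therefore no independent support for this direction.

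For DP, the class II isotype encoded nearest the centromere, both chains were lower in tumor-dissociated cells. HLA-DPA1, the alpha chain, gave 2437 and 2392 in tumor-dissociated JMJD3 cells, 2772 and 616.1 in tumor-dissociated vector cells, 4657 and 3465 in cultured JMJD3 cells, and 5103 and 4451 in cultured vector cells. Its groups did not overlap, and the difference was -1.38 ± 0.402 (SE, n = 4 arrays each; limma adjusted p = 0.0406; -0.78 without the low array). HLA-DPB1, the beta chain, was dim, at 159.6 to 199.7 on tumor-dissociated and 207.0 to 243.3 on cultured arrays, and differed by -0.73 (limma adjusted p = 0.0156).

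HLA-DM, the peptide exchanger, is also a pair of chains. HLA-DMB, its beta chain, gave 927.8 and 1023 in tumor-dissociated JMJD3 cells, 1100 and 199.4 in tumor-dissociated vector cells, 1874 and 1385 in cultured JMJD3 cells, and 2118 and 1937 in cultured vector cells. The groups did not overlap, but the limma test passed only without the low array, at -0.87 (adjusted p = 0.0101) against -1.71 (adjusted p = 0.0586) with it. HLA-DMA, the alpha chain, gave 2217 and 1878 in tumor-dissociated JMJD3 cells, 2254 and 586.2 in tumor-dissociated vector cells, 2756 and 2190 in cultured JMJD3 cells, and 3409 and 2809 in cultured vector cells. Its groups overlapped between 2190 and 2254, and it passed in neither fit, at -0.92 (limma adjusted p = 0.113) and -0.38 without the low array (limma adjusted p = 0.133).

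**Figure D1:**
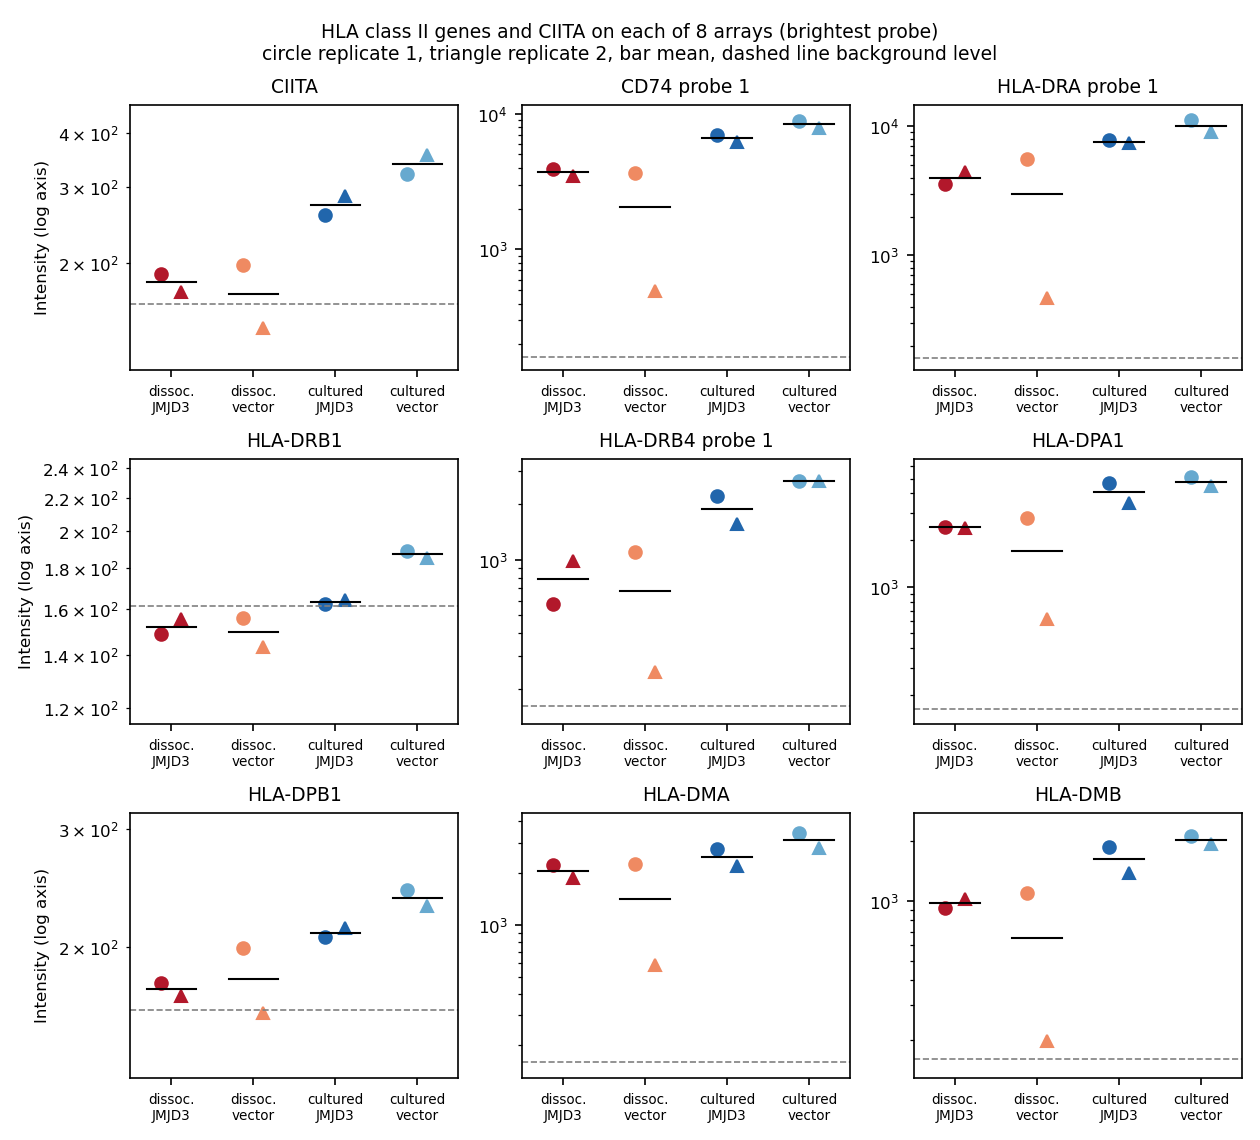
Deposited intensity (log axis) of the brightest probe of each of the 9 genes in the 4 groups, tumor-dissociated left of cultured and JMJD3 left of vector, with circles for replicate 1, triangles for replicate 2, bars for means and a dashed line at the background level of 161.1. The second array of tumor-dissociated vector cells lies below every other array in all 9 panels, for example at 469.1 for HLA-DRA against 5548 on its partner.

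Counted over the set, 9 of the 14 probes (7 genes) were lower in tumor-dissociated cells at a limma adjusted p under 0.05 in the average over vector and JMJD3, and none was higher. The background was 9.32% of all tested probes lower and 9.43% higher. At an unadjusted p under 0.05 the count was 13 of 14, against 33.9% of all probes. The median difference of the member probes was -1.62, against -0.03 for all tested probes. Without the low array the count was 11 of 14 (8 genes) with 6.91% of all probes lower, and the median was -0.89. The exact two-sided permutation test of 4 arrays against 4 gave p = 0.0286 for each of the 11 separated probes, the smallest value its 70 arrangements allow. The third CD74 probe gave p = 0.0571, HLA-DMA p = 0.0857 and the third HLA-DRB4 probe p = 0.4 in that exact test. The 14 probes come from fewer genes, some with several probes, and share the same arrays. They are not independent observations in any count here. In these bulk samples, fewer class II-positive cells and less class II RNA per cell cannot be told apart.

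Within vector cells, 5 of the 14 probes (CIITA, HLA-DRB1, the brightest HLA-DRB4 probe and the first and the third CD74 probe) were lower in tumor-dissociated cells by limma, against 3.03% of all tested probes, and none was higher, against 4.51%. An unadjusted p under 0.05 was reached by 13, against 22.8%, and in 13 both tumor-dissociated arrays were below both cultured arrays, against 30% of all probes. With only the 4 vector arrays in the fit 4 of 14 were called lower, against 3.19%. CIITA differed by -1.95 ± 0.346 (SE, n = 2 arrays each; limma adjusted p = 0.00905), or -1.30 without the low array. HLA-DRB1 was at least 1.44-fold lower in background-corrected intensity (limma adjusted p = 0.02), but was tested only because of its cultured arrays. Without the low array the called probes were CIITA and the first and the second CD74 probe, against a background of 0.889%, and each difference then rests on a single tumor-dissociated vector array that is assumed to vary like the other groups.

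Within JMJD3 cells, none of the 14 probes passed the limma threshold (1.6% of all tested probes were called lower and 2.72% higher), and 2 had an unadjusted p under 0.05 (22.4% of all probes). Those 2 were CIITA, at -1.12 (limma adjusted p = 0.0954), and HLA-DPB1, at -0.61 (limma adjusted p = 0.163). All 14 differences were below 0, as were 53.1% of all tested probes, and in 11 of 14 probes both tumor-dissociated arrays lay below both cultured arrays, against 28.5% of all probes. The spread in this fit is pooled over all 8 arrays, the low array included. Without that array, whose group is not part of this comparison, 7 of 14 probes from CIITA, CD74, HLA-DRA and HLA-DRB4 were called lower, against 1.84% of all probes. HLA-DRA then differed by -0.96 ± 0.184 (SE; limma adjusted p = 0.0295) and CIITA by -1.12 ± 0.185 (SE; limma adjusted p = 0.0196). With only the 4 JMJD3 arrays in the fit, 2 of 14 probes were called, against 0.496%.

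**Figure D2:**
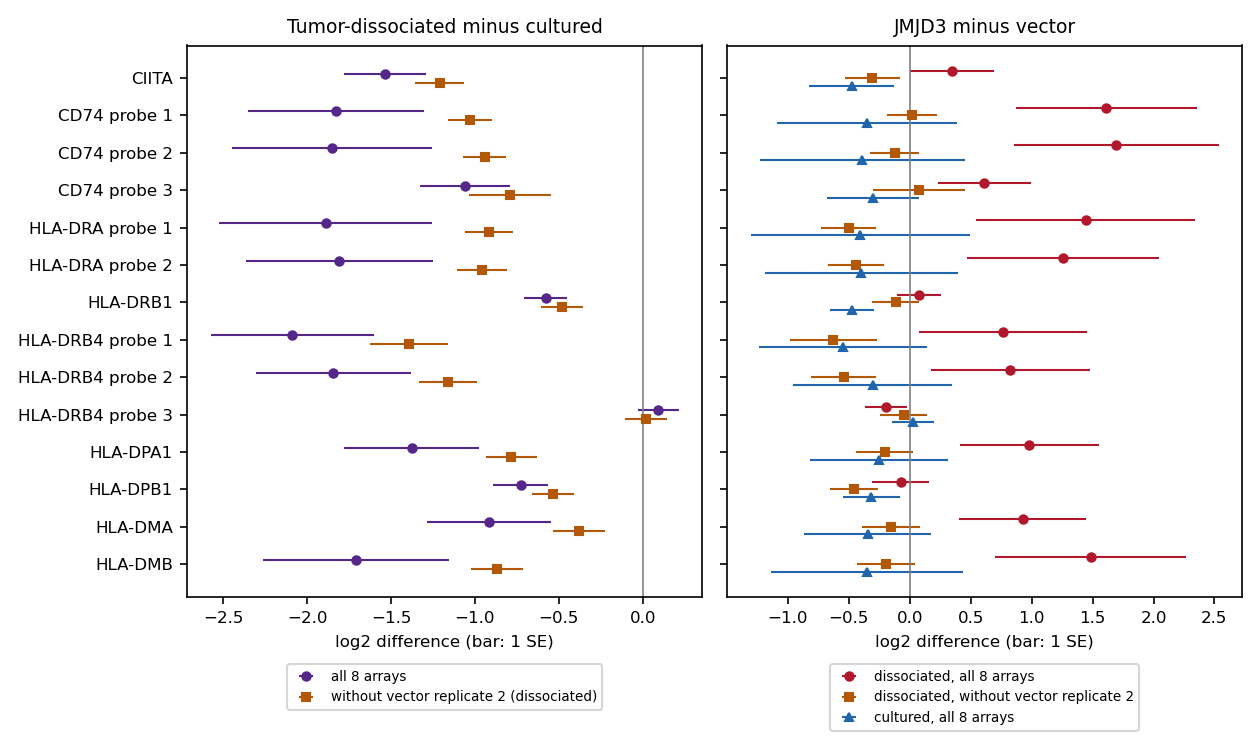
Log2 differences with bars of 1 SE for the 14 probes, tumor-dissociated minus cultured cells (left) and JMJD3 minus vector cells (right), with all 8 arrays and without the second tumor-dissociated vector array. The origin differences lie below 0 for 13 of the 14 probes, from -2.09 for HLA-DRB4 upwards, while the JMJD3 difference of HLA-DRA in tumor-dissociated cells is 1.44 with all arrays and -0.50 without the low one.

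JMJD3 had no called effect on the class II set in cultured cells. CIITA averaged 272.3 ± 19.5 in cultured JMJD3 cells and 339.1 ± 24.8 in cultured vector cells (SD, n = 2 each), and HLA-DRA 7606 ± 334 in JMJD3 cells and 10098 ± 1473 in vector cells (SD, n = 2 each). By limma none of the 14 probes was called lower or higher, against 0 and 0.0491% of all tested probes, and only HLA-DRB1 had an unadjusted p under 0.05, at -0.48 ± 0.18 (SE; limma adjusted p = 1), against 4.29% of all probes. The differences nevertheless leaned 1 way: 13 of 14 were below 0 (51.7% of all probes), with a median of -0.35 against -0.01 for all probes. Both JMJD3 arrays were below both vector arrays in 11 of 14 probes, against 17.6% of all probes. The cultured vector arrays were the 2 highest of the 8 in the same 11 probes, against 7.55%. The member probes share the same arrays, and some genes have several, so they do not act as replicates of the condition. The smallest p of an exact permutation test with 2 arrays a group is 0.333. The SE of the HLA-DRA difference of -0.41 was 0.899 in the fit of all arrays and 0.184 without the low tumor-dissociated vector array, which is not in this comparison but enters the pooled spread (limma adjusted p = 1 in both fits). With only the 4 cultured arrays in the fit the SE was 0.163 (limma adjusted p = 0.641).

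In tumor-dissociated cells the JMJD3 difference depended on the low vector array. None of the 14 probes was called by limma (0.268% of all probes were higher and 0.402% lower), and none had an unadjusted p under 0.05 (11.9% of all probes). HLA-DRA was higher in JMJD3 cells by 1.44 ± 0.899 (SE; limma adjusted p = 0.606), and without the low array it was lower, at -0.50 ± 0.225 (limma adjusted p = 0.579). The median over the 14 probes was 0.88 with that array and -0.20 without it, when 12 of 14 differences were below 0 (50.8% of all probes). No probe had both JMJD3 arrays above both vector arrays (17.9% of all probes) or both below (19.2%). If instead the first tumor-dissociated vector array was left out, HLA-DRA was higher in JMJD3 cells by 3.39 and some member probes were called. The low array was then the only one of its group, so no count is given.

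No change of the JMJD3 difference between the origins was called: by limma none of the 14 probes passed (0.0179% of all probes were higher and 0.067% lower) and none had an unadjusted p under 0.05 (6.26%), with the lowest adjusted p at 0.801 for HLA-DRB1. Averaged over both origins, none was called either (0.263% of all probes were higher and 0.0759% lower), nor at an unadjusted p under 0.05 (9.93%).

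The second array of tumor-dissociated vector cells was the lowest of the 8 arrays in 13 of the 14 probes, against 15.6% of all tested probes. Its level was lower than that of its partner by over 2 on the log2 scale in 9 of the 14 probes (6 genes), against 64 of 22396 probes, 0.286%. The 64 include those 9. The array was set apart because of its class II levels, so these counts describe it and are no test. The ratio of partner to low array, in background-corrected intensity, was 14.9 for HLA-DRA, 10.3 for HLA-DMB, 9.13 for CD74, 6.88 for HLA-DRB4, 5.20 for HLA-DPA1 and 4.45 for HLA-DMA. CIITA and HLA-DPB1 were not above background on the low array, so their ratios are bounds, at least 1.64-fold for CIITA and at least 1.66-fold for HLA-DPB1. HLA-DRB1 was above background on neither array and gives no ratio. In the JMJD3 tumor-dissociated pair no member probe differed by over 1 on that scale. The low levels on this single array included the chaperone CD74 and chains of DR, DP and DM.

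Other genes of the pathway were counted by list, beside the 9.43% of all tested probes that were higher and the 9.32% that were lower. Of 4 tested class II loci outside the set, HLA-DQB1, the DQ beta chain, differed between origins by -1.43 (limma adjusted p = 0.00183) and HLA-DRB6, a DR beta pseudogene, by -2.01 (limma adjusted p = 0.0326), while HLA-DRB3 and HLA-DOA did not pass. None of the 7 factors that bind class II promoters (RFX5, RFXAP, RFXANK, CREB1, NFYA, NFYB and NFYC) was called by limma, with a median of -0.24, and for so short a list that count is near the background share. RFX5, a DNA-binding subunit of the RFX complex, gave 2650 and 2419 in tumor-dissociated JMJD3 cells, 2332 and 2548 in tumor-dissociated vector cells, 3248 and 2200 in cultured JMJD3 cells, and 3130 and 2545 in cultured vector cells. Its groups overlapped, and its level on the low class II array was not below that of the partner.

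Interferon gamma is the main inducer of CIITA, and its pathway genes were counted in the same origin comparison, with the same background shares. The IFNG probe was not above background on any array. Of 7 tested receptor and signalling genes, IRF1, a transcription factor that acts on CIITA, was higher in tumor-dissociated cells by 0.54 (limma adjusted p = 0.0319), JAK2, a receptor kinase, was lower, at -0.47 (limma adjusted p = 0.045), and SOCS1, a feedback inhibitor, was higher (limma adjusted p = 0.00259) but not above background on any cultured array. Of 14 responsive genes with a probe, 7 were tested. CXCL9, CXCL11, GBP4, GBP5 and NLRC5 were at background on all 8 arrays, and CXCL10 and IDO1 were above it on 1 array each. Of the 7 tested, 3 were higher and none lower: GBP1, an interferon-induced GTPase, by 1.11 (limma adjusted p = 0.0156), and the immunoproteasome subunits PSMB9 by 0.65 (limma adjusted p = 0.027) and PSMB8 by 0.47 (limma adjusted p = 0.0411). SOCS1 was tested only because of tumor-dissociated arrays. Without the low array, IRF1, at 0.52, and PSMB8, at 0.53, were no longer called. The calls of JAK2, SOCS1, GBP1 and PSMB9 remained.

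Of 6 class I genes, HLA-B alone was called, at -0.89 (limma adjusted p = 0.049; adjusted p = 0.0672 without the low array), and its intensity was 269.0 on the low class II array against 563.2 on the partner. B2M, the class I light chain, gave 12008 on the low array and 10695 on its partner. None of 6 tested endosomal processing genes, such as the cathepsins CTSB, CTSD and CTSL, and none of 3 tested costimulatory genes passed in the origin comparison by limma.

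The members within the class II region of chromosome 6 were also read beside their neighbours. RefSeq places 33 genes from HLA-DRA to HLA-DPB1, of which 14 had a tested probe, 6 of them members. Among the 8 others, HLA-DRB6, HLA-DQB1 and TAP2 had every tumor-dissociated array below every cultured one, against 12.1% of all tested probes. The HLA-DRB6 probe is a DR beta probe and may read its paralogs. TAP2, a peptide transporter subunit, differed by -0.61 (limma adjusted p = 0.0241), whereas its partner TAP1, at 0.40 (limma adjusted p = 0.0587), PSMB8 and PSMB9 lay above 0. On the low class II array these 4 genes differed from the partner by 0.31 for TAP2, -0.15 for TAP1, -0.23 for PSMB8 and -0.45 for PSMB9 on the log2 scale, while HLA-DMB, beside PSMB9 among the measured genes, differed by -3.36.

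**Figure D3:**
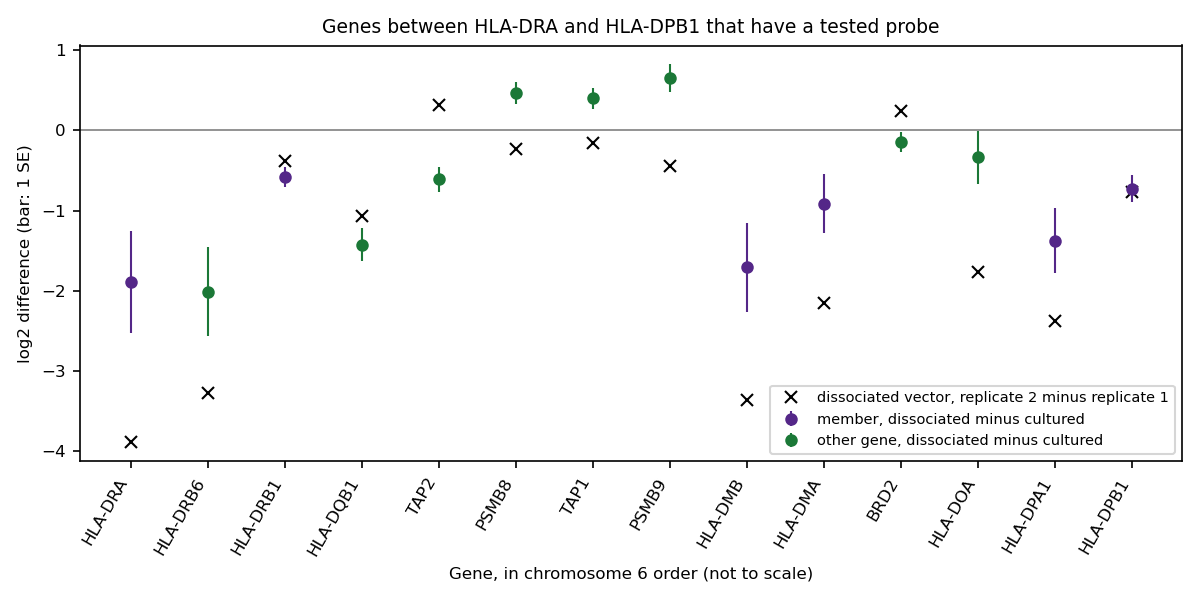
Log2 difference (bars of 1 SE), tumor-dissociated minus cultured cells averaged over vector and JMJD3, for the 14 genes with a tested probe in their order between HLA-DRA and HLA-DPB1 (not to scale), members and others coloured apart, with crosses for replicate 2 minus replicate 1 of tumor-dissociated vector cells. The proteasome and transporter genes between HLA-DQB1 and HLA-DMB lie above 0, apart from TAP2 at -0.61. The class II genes on either side lie below 0, from -2.01 for HLA-DRB6 to -0.34 ± 0.332 (SE) for HLA-DOA.

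Markers of other cells were read beside these levels. Of 13 leukocyte and antigen-presenting cell markers with a probe, 5 were at background on all 8 arrays, among them PTPRC, the pan-leukocyte phosphatase, and TYROBP, a myeloid adaptor. AIF1 (188.8 to 235.6) and CD14 (176.7 to 229.3) were above background on all 8. The summed intensity of the 13 ran from 2049 to 2538 on tumor-dissociated and from 2308 to 2395 on cultured arrays, and was 2049 on the low class II array. That sum includes the probes at background, and it was highest on the first tumor-dissociated JMJD3 array. LYZ, lysozyme, was the marker called, at -1.88 (limma adjusted p = 0.00129), and CSF1R, a macrophage receptor, stood at 558.2 on the first tumor-dissociated JMJD3 array and at 183.2 or below on the others. The 4 fibroblast markers summed to between 956.0 and 1638 on tumor-dissociated and between 759.2 and 822.9 on cultured arrays, highest on the low class II array. On that array and its partner PDGFRA gave 672.0 and 319.8, COL1A1 400.1 and 337.3, LUM 369.2 and 316.0, and DCN 197 and 262. Of these, PDGFRA, the PDGF receptor alpha chain, was higher in tumor-dissociated cells by 2.09 (limma adjusted p = 0.00116) and was above background on 2 of the 4 cultured arrays. COL1A1, a collagen chain, was higher (limma adjusted p = 0.000453) and was above background on 1 of the 4 cultured arrays. LUM, at 0.36 (limma adjusted p = 0.21), and DCN, at 0.28 (limma adjusted p = 0.41), were not called. Of 4 endothelial markers, 3 were at background on all arrays. PECAM1, not above background on any cultured array, was called higher (limma adjusted p = 0.0104). It was tested only because of tumor-dissociated arrays. The part of these markers in the class II levels was not tested.

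Of 7 melanocyte lineage markers with a probe, 3 were at background throughout, among them MLANA and TYR, and the 7 summed to between 1241 and 3259 on tumor-dissociated and between 2904 and 4050 on cultured arrays, lowest on the low class II array. The range of that sum is mostly that of SOX10. MITF, the lineage transcription factor, was called higher in tumor-dissociated cells, at 0.53 (limma adjusted p = 0.019). MITF gave 312.0 on the low class II array and 338.4 on the partner. SOX10, the neural crest transcription factor, gave 1188 and 2184 in tumor-dissociated JMJD3 cells, 1560 and 230.5 in tumor-dissociated vector cells, 2569 and 1956 in cultured JMJD3 cells, and 3096 and 2110 in cultured vector cells. It was lowest on the array where class II was lowest, and on the other arrays its groups overlapped. With all 8 arrays the origin difference of SOX10 was -1.51 (limma adjusted p = 0.11), and without the low array it was -0.63.

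Likeness to HLA-DRA was measured over the 8 arrays as the root-mean-square distance between log2 profiles centred on their means, for 12445 genes outside the set. The 10 nearest were SOX10 (0.321), HLA-DRB6 (0.334), MAF (0.338), ERBB3 (0.375), MIA (0.394), GAS7 (0.438), PMEPA1 (0.505), UCN2 (0.54), TAGLN3 (0.567) and ROPN1 (0.576). Over 7 arrays, without the low one, none of these 10 was among the nearest 10, so the ranking rests on that array. For CIITA the nearest were HLA-DQB1 (0.194), CEMIP2 (0.223), FOXD2 (0.232) and ADARB1 (0.243), and 5 of its 10 nearest were shared with the ranking over 7 arrays. All these profiles come from the same 8 arrays and their shared intensity distribution.

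**Figure D4:**
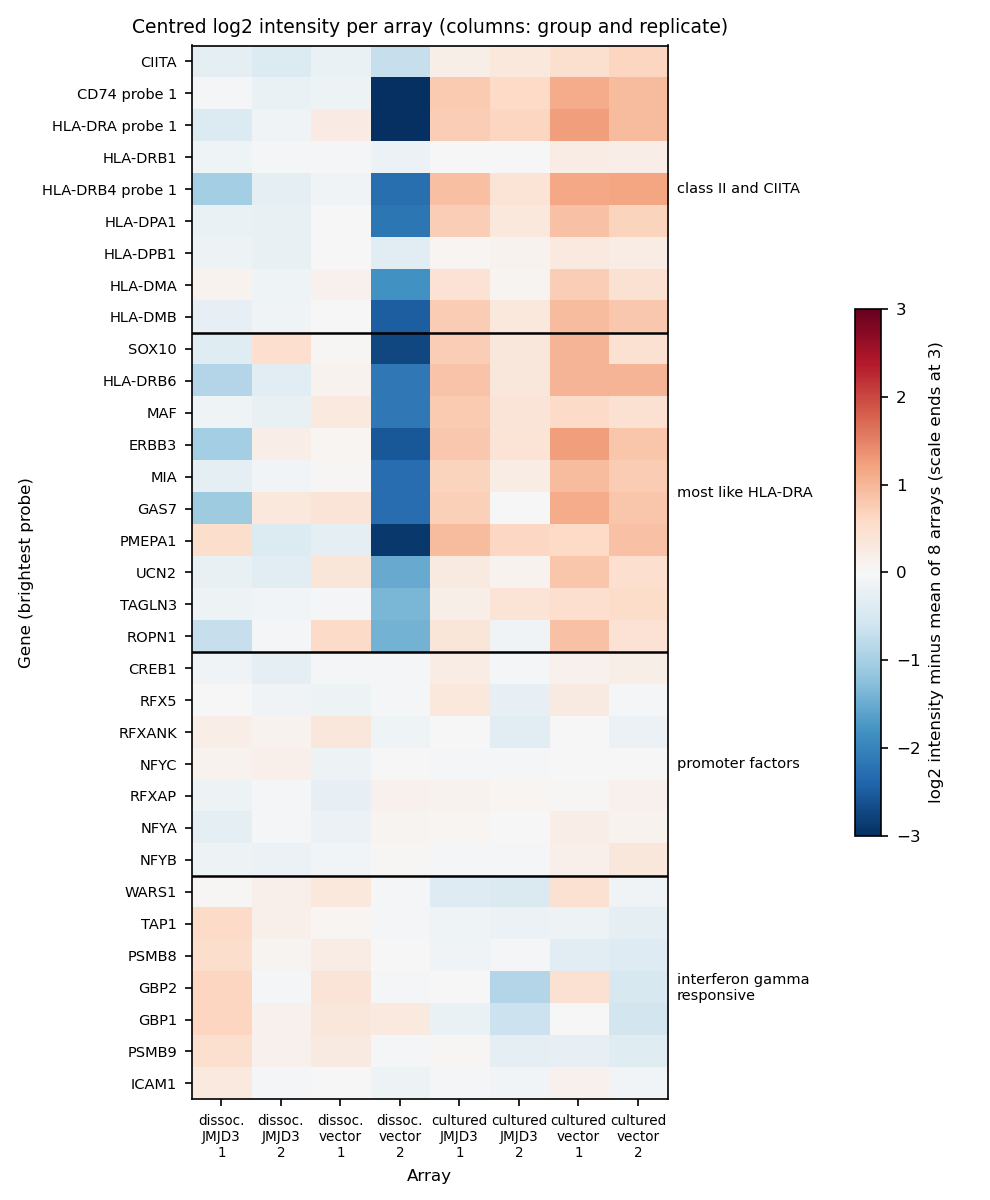
Log2 intensity minus the mean of the 8 arrays, as colour (scale ends at 3), for the brightest probe of each member for the 10 genes nearest to HLA-DRA, for the class II promoter factors and for the interferon gamma responsive genes, with a column per array from tumor-dissociated JMJD3 (left) to cultured vector (right). The column of the second tumor-dissociated vector array is the lowest for the members and for SOX10, where the intensity was 230.5 against 1560 on its partner.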

How the data were processed

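RNA of the 8 samples was labelled with biotin and hybridised to Illumina HumanHT-12 V4 arrays, and the arrays were analysed in GenomeStudio, per the labels' protocols and the series' design text. The deposited values are intensities on a linear scale, from 110.7 to 31938. The authors' normalization was not given in the sources used here. Sorted, the columns lay within 0.00575 of each other in log2. A further table held 16 value columns whose names match no sample label, and these were not used.

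From the deposited intensities, the background level was set at the 0.01 upper tail (161.1) around the mode of all values (139.6), a rule chosen with the values seen. Intensities were corrected with normexp (offset 16) and taken to log2. The 22396 probes above background on at least 2 arrays were fitted in limma 3.58.1 (R 4.3.3) as 1 model of 4 group means, with 4 residual and 5.76 prior degrees of freedom and 7 contrasts. Benjamini-Hochberg adjustment ran over all tested probes of a contrast. An adjusted p under 0.05 was a call. Single values of 4 arrays against 4 were also tested by exact two-sided permutation. The fit was tested on simulated data. A probe dim on a whole group gives a bound: the dim values were raised to the lowest signal above background on the same array.

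Probes were named from the platform annotation: 30113 had 1 symbol, 8 several and 17202 none. All member probes are reported, the brightest first. Pathway genes are counted by list, with the called genes named, and the 10 nearest profiles were sought by the stated distance. The members and lists were chosen with earlier results of these data known. Background correction, renormalization, filter, 1 probe a gene, replicate block, groups in the fit, left-out arrays, array weights and moderation were varied. The slide of each array was not given in the sources used here.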

Additional observations from a re-analysis of the deposited data

How the results depend on the processing

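Each group held 2 arrays, so 1 array decides most counts, and limma's spread was widened by the second tumor-dissociated vector array; dim probes (HLA-DRB1, HLA-DPB1, CIITA) sit near background, which limits their folds. Apart from leaving out arrays, 401 of 426 member values and 63 of 70 member counts kept their direction and side of the threshold or stayed within 1.5 times. With 1 array left out, 293 of 362 member values and 40 of 64 member counts did so, and 10 member values reversed. For most settings below, the share of all probes called is not given. A changed count thus shows dependence on the setting and does not measure strength of a class II result. With 2 arrays a group, both lie equally far from their group mean, so the array weights had to be equal within each group. They were 0.778 for both tumor-dissociated vector arrays and could not single out the low array. The count of 9 lower probes in the averaged origin comparison was 4 with an intensity trend and robust prior and 2 to 13 with 1 array left out, including 2 without the second cultured vector array, 3 without the first cultured vector, either cultured JMJD3 or the first tumor-dissociated JMJD3 array. The count of 5 in vector cells was 1 without background correction, 3 with probes above background on all 8 arrays, 11 with array weights, 3 with trend and robust prior, and 0 to 13 with 1 array left out: 13 without the first tumor-dissociated vector array, 0 without the second cultured vector array, 1 without the first, and 3 without the second tumor-dissociated vector array or either cultured JMJD3 array. The labels give replicate numbers only, and the deviations of same-numbered arrays correlated at 0.0359 to 0.308 between groups, highest between the cultured groups and under 0.1 for 3 of the 6 pairs of groups, so the arrays were treated as sharing only a number; with the replicate block the count in vector cells was 11, and no other count of calls moved by over 1.5 times under the block. The count of 0 in JMJD3 cells was 2 with only the groups compared and 0 to 7 with 1 array left out, 7 without either tumor-dissociated vector array. The counts of 0 for JMJD3 in tumor-dissociated cells, averaged over both origins and for the difference between origins rose without the first tumor-dissociated vector array. The low array was then the only one of its group. The exact test's 11 became 0 with any array left out, since 3 arrays against 4 cannot give a p below 0.0571. The JMJD3 difference in tumor-dissociated cells changed sign with 1 array left out, ranging from -0.31 to 1.00 for CIITA, -0.50 to 3.39 for HLA-DRA, -0.12 to 0.27 for HLA-DRB1, -0.63 to 2.16 for HLA-DRB4, -0.46 to 0.31 for HLA-DPB1, -0.21 to 2.17 for HLA-DPA1, -0.15 to 2.001 for HLA-DMA and -0.20 to 3.17 for HLA-DMB; HLA-DRB1 was -0.02 and HLA-DPB1 0.001 without the second tumor-dissociated JMJD3 array. Why these values moved was not tested. A slide block was not run, because the slide of each array was not given in the sources used here.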
